A study of Arabidopsis thaliana with 6 samples.

Results

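AT5G20790, AT5G53050 and the pseudogenes AT1G67610 and AT1G67645 are 4 loci of Arabidopsis thaliana, of 33602 in the deposited expression table, that were near 0 in wild-type roots with phosphate and high in roots without it. They were chosen by these measured levels: listed at or near 0 in wild type with phosphate, and high in wild type and phl2 without it. The reference annotation says little about them. AT5G20790 encodes an uncharacterized protein, AT5G53050 a protein of the alpha/beta-hydrolase superfamily, and the other two are listed as transcribed pseudogenes of F-box proteins with a DUF295 domain. Roots of seedlings aged 8 days were sequenced in 3 groups of 2 deposited columns each: Col-0 wild type with sufficient phosphate (replicates 1 and 2), Col-0 wild type under phosphate deficiency (replicates 3 and 4), and the mutant phl2, in the Col-0 ecotype, under phosphate deficiency (replicates 5 and 6). The phl2 allele is not given in the sources used here, and phl2 with phosphate is not among these samples.

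Plants short of phosphate switch on transporters, phosphatases and enzymes that replace membrane phospholipids. PHR1, a MYB transcription factor, and relatives such as PHL2 drive many of these genes through a promoter motif called P1BS, and SPX proteins hold PHR1 back while phosphate is plentiful. Alpha/beta hydrolases are a broad superfamily that holds esterases and lipases among others. F-box proteins choose the targets of SCF ubiquitin ligases, and a pseudogene is a copy that has lost the capacity to encode the full protein.

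The deposited unit is RPKM, reads scaled by the length of the gene and the size of the library. The reads behind the table were estimated at 606000 to 898000 per column, which is 5.44% to 9.07% of the estimated denominators. The phl2 columns held equal reads, within a relative tolerance of 0.001, in 81.0% of 21237 genes, so their mean was used as 1 sample with no spread of its own. PHL2, the gene targeted in the mutant, was listed at 1.65 and 2.37 RPKM with phosphate, at 2.14 and 2.24 under deficiency, and in phl2 at 1.04 and 0.934, a difference between phl2 and deficient wild type of -0.68 ± 0.22 (SE) in log2(RPKM + 1) that limma did not call (adjusted p = 0.055). After the libraries were rescaled by their median ratios it was -0.25 ± 0.24 (adjusted p = 0.62, limma), and the median tested gene differed by -0.48 as deposited. Of 8 root markers, 0 were at 0 in any column, and their summed level was 9.11 to 10.9 RPKM with phosphate, 24.4 to 26.5 without and 15.5 to 17.8 in phl2. Of 6 markers of green shoot tissue, 1 was at 0 in the phl2 columns, and their sum was 17.7 to 20.0, 11.3 to 14.2 and 4.09 to 4.73 RPKM. Single markers did not all follow these sums. From sufficient to deficient wild type, the root markers PRP3 and WOX5 went from means of 1.76 and 0.746 to 8.31 and 0.444 RPKM. The shoot markers RBCS1A and LHCB1.3 went from 3.89 and 3.73 to 1.75 and 4.78 RPKM. The part of these differences in the results below was not tested.

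Where the pseudogenes lie on the genome matters for reading their values, so their sequence comes first. AT1G67610 occupies chr1:25339036-25340241 on the minus strand and AT1G67645 chr1:25355112-25356129 on the plus strand (TAIR10.1, the RefSeq reference), each as a single exon. They point in opposite directions and are 14870 bases apart, with 6 other loci of the table in between. A blastn alignment covered 99.4% of AT1G67645. Over 1014 aligned positions the copies were identical at 998, or 98.4%, with 11 substitutions and 5 gap positions. The longest stretch without a difference was 771 bases. An 80-base stretch that holds 4 of the differences, in capitals, is shown in the sense direction of each copy, from chr1:25355998-25356077 and chr1:25339071-25339150.
AT1G67645: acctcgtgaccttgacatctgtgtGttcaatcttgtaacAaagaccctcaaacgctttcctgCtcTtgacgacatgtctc
AT1G67610: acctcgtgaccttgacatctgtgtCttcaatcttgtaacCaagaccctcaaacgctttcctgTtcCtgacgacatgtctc

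**Figure D1:**
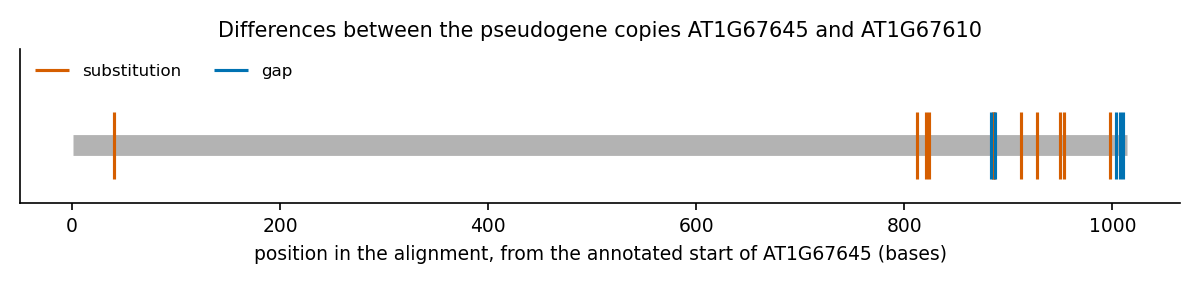
Positions of the 11 substitutions (orange) and 5 gap positions (blue) along the 1014 aligned positions of AT1G67645 and AT1G67610, counted in bases from the start of AT1G67645. The first difference lies at alignment position 40 and the others from position 812 onward.

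Of the windows of 50 bases in AT1G67610, 63.9% occur at another place in the genome, and of those in AT1G67645 75.4%. With windows of 100 bases the shares are 60.7% and 73.1%. For AT5G20790 and AT5G53050 they are 0% at both lengths. How the authors placed reads that match more than 1 position is not given in the sources used here, so the levels of the pseudogenes cannot be divided between the copies with certainty.

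AT1G67610 was listed at 0 in both wild-type libraries with phosphate, at 33.6 and 36.3 RPKM under deficiency, and in phl2 at 33.7 and 27.6 RPKM. AT1G67645 was listed at 0 and 0, at 24.8 and 25.6, and at 26.5 and 19.5 RPKM. For each copy every deficient column lay far above the sufficient ones, and 1 phl2 column lay within or above the deficient wild-type values and 1 below them. By an approximate count, 3 reads would have given 0.25 to 0.32 RPKM in these loci in the libraries with phosphate, which is the level that a listing of 0 allows from counting error alone. The deficient columns rested on about 399, 469, 511 and 362 reads for AT1G67610 and about 249, 279, 340 and 216 for AT1G67645. AT1G67645 stood at 73.8% and 70.4% of the level of AT1G67610 in deficient wild type, and at 78.7% and 70.8% in the phl2 columns.

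AT5G20790 (chr5:7039674-7040919, minus strand, 1 exon block of 1246 bases, protein-coding) was listed at 0.285 and 0 RPKM with phosphate, at 18.1 and 15.9 without, and in phl2 at 11.7 and 13.4. Here both phl2 columns lay below both deficient wild-type libraries and above both sufficient ones. The value of 0.285 rested on about 3 reads, against about 222 and 213 in the deficient libraries. AT5G53050 (chr5:21510095-21513620, minus strand, 9 exon blocks with 1974 exonic bases) was listed at 0.834 and 0.281 RPKM with phosphate, at 23.6 and 22.8 without, and at 21.4 and 20.6 in phl2. Its mean was 0.558 ± 0.39 RPKM with phosphate and 23.2 ± 0.54 without (SD, n = 2), a ratio of 41.7. The lower mean rested on about 15 and 5 reads, and the ratio was 82.6 without replicate 1 and 27.8 without replicate 2. Here the phl2 columns lay just under the deficient wild type. In a bulk sample such a change can come from more RNA per cell or from more cells that make it, and these cannot be told apart.

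**Figure D2:**
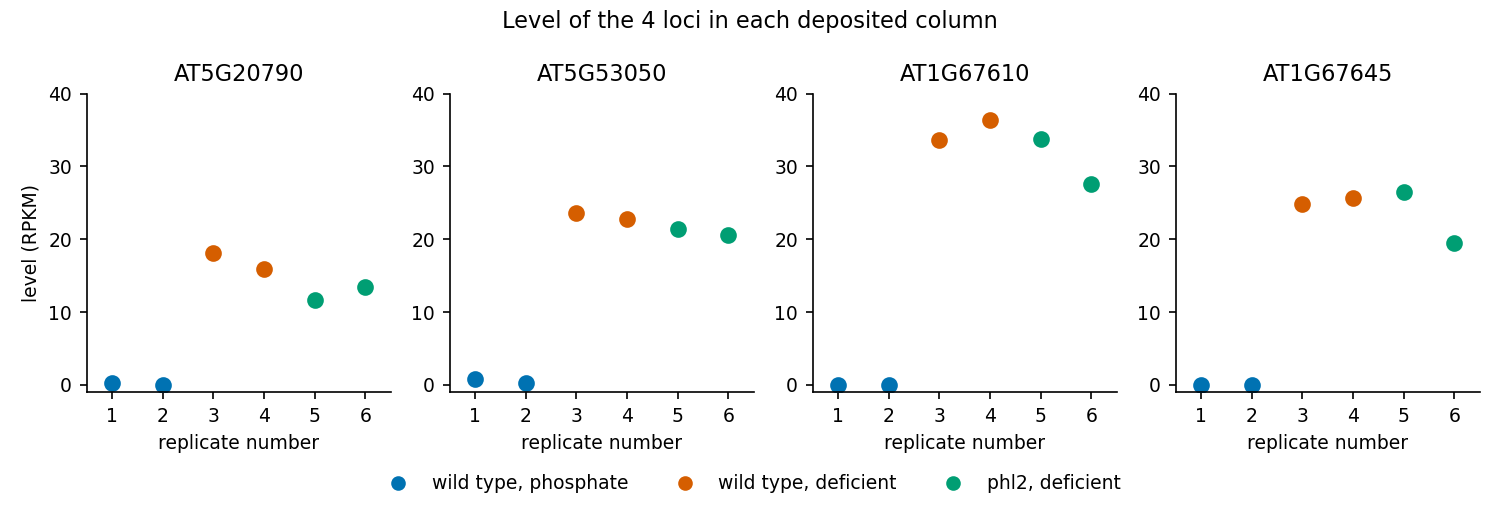
Level in RPKM (linear axis) of each of the 4 loci in the 6 deposited columns, 1 point per column. The points with phosphate (blue, replicates 1 and 2) lie between 0 and 0.834 RPKM, and those under deficiency, in wild type (orange) and phl2 (green), between 11.7 and 36.3.

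These values chose the loci, so the contrast of deficient with sufficient wild type is given as a description with no test. On the log2(RPKM + 1) scale, which understates the change of low genes, the differences were 5.17 ± 0.13 (SE) for AT1G67610, 4.71 ± 0.14 for AT1G67645, 3.99 ± 0.17 for AT5G20790 and 3.98 ± 0.18 for AT5G53050. They ranked 1, 2, 3 and 4 among 11463 tested genes, those with at least 1 RPKM in 2 or more columns. All 4 loci passed that filter, and only through the deficient columns. The next in rank were the pyrophosphatase gene PS2 and the phosphocholine phosphatase gene PECP1, at 3.98 and 3.93, and the phosphate sensors SPX3 and SPX1, at 3.44 and 3.43. The limma fit of all genes called 28.0% of tested genes higher in deficiency, and nothing is read from the members' own calls. The median tested gene was higher by 0.33 in deficiency as deposited. After each library was rescaled by its median ratio, which brought that median to 0.00 and the calls to 8.1% higher and 11.7% lower, the differences of the 4 loci were 4.81, 4.36, 3.64 and 3.60. AT5G53050 then ranked 5, behind PS2 at 3.61.

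By level rather than change the order was the same in both deficient wild-type libraries. AT1G67610 was highest, then AT1G67645, AT5G53050 and AT5G20790, at 34.9 ± 2.0, 25.2 ± 0.57, 23.2 ± 0.54 and 17.0 ± 1.5 RPKM (SD, n = 2). In mean level under deficiency they ranked 60, 120, 143 and 253 of all 33602 loci. In phl2 replicate 6 AT1G67645 (19.5 RPKM) was below AT5G53050 (20.6), while in replicate 5 it was above (26.5 and 21.4). The phl2 columns count as 1 sample, so their gap does not measure a spread between replicates, and the order was not tested.

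Most loci around the members were barely expressed. Within 10 kb of a member the table held 30 other loci, of which 8 were listed at 0 in all 6 columns and 24 stayed below 1 RPKM in every one. Only 5 passed the filter. The fit called 1 higher and 1 lower in deficient wild type, with a median log2 difference of 0.35 over the 5 against 0.33 over all tested genes. The shares called over all tested genes were 28.0% higher and 4.45% lower. AT1G67680, which encodes a protein with an SRP72 RNA-binding domain and lies 9626 bases from AT1G67645, was the higher one (0.704 and 0.752 RPKM with phosphate, 1.67 and 1.66 without), by 0.63 ± 0.16 (adjusted p = 0.020, limma). After rescaling its difference was 0.35 (adjusted p = 0.11, limma).

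The loci beside AT5G20790 were mostly silent. Of its 8 neighbours 5, all annotated as pseudogenes, were listed at 0 in every column, among them AT5G20800 at 194 bases and AT5G20780 at 1204 bases. The auxin-responsive SAUR-like genes AT5G20810 and AT5G20820 stood at no more than 0.427 RPKM. SUS1, a sucrose synthase gene 9297 bases away, was at 1.38 and 1.20 RPKM with phosphate and 2.22 and 2.04 without, and was not called (0.45 ± 0.16, adjusted p = 0.062, limma).

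AT1G67610 has a neighbour on each side. AT1G67620, 111 bases away on the other strand and annotated as Lojap-related, was at 0.242 and 0.228 RPKM with phosphate, 0.909 and 0.943 without, and 0.178 and 0.206 in phl2. AT1G67600, a gene of the acid phosphatase and vanadium-dependent haloperoxidase class at 1288 bases, was at 0.109 and 0.102, 1.33 and 0.658, and 0.160 and 0.185 RPKM. Both were higher in the deficient wild-type libraries than in those with phosphate, and neither passed the filter. Both phl2 columns were close to the sufficient wild type, whereas those of AT1G67610 stood near the deficient wild type. The values of AT1G67620 and AT1G67600 with phosphate and in phl2, 0.102 to 0.242 RPKM, rest on very few reads. The difference between these patterns was not tested. AT1G67640, 1085 bases before AT1G67645 and coding for an amino acid transporter, was listed at 0 in every column. The remaining loci between the copies reached at most 0.566 RPKM in wild type.

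**Figure D3:**
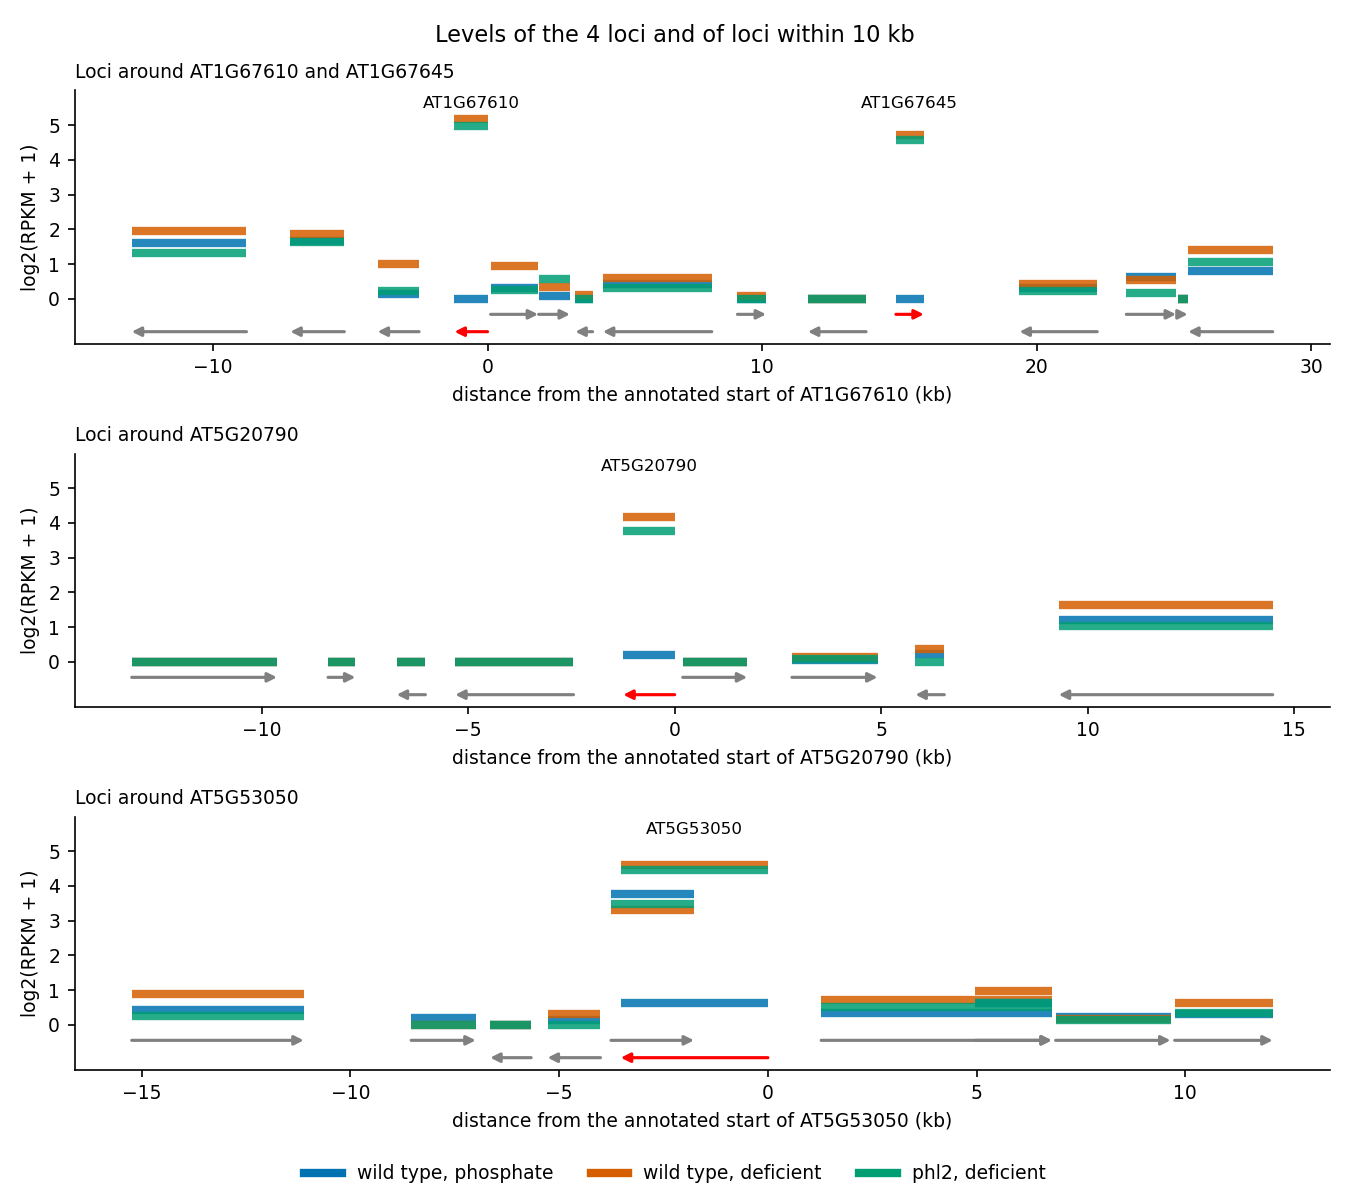
Mean level, as log2(RPKM + 1), of the 4 loci and of table loci within 10 kb of them, each drawn over its annotated span against the distance in kb from a member's start. Blue, orange and green bars are sufficient wild type, deficient wild type and phl2, and arrows give the strand (red for the 4 loci). The members stand far above most bars around them in the deficient groups. Of the 30 neighbours, 24 stayed below 1 RPKM in every single column, and AT5G53048 is the tall neighbour.

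AT5G53050 is the exception, because it shares its stretch of chromosome with a transcribed locus on the other strand. AT5G53048 (chr5:21509861-21511850, plus strand) is annotated as a long non-coding RNA and natural antisense transcript of AT5G53050, and 31.6% of the exonic bases of AT5G53050 lie opposite to exons of another gene. AT5G53048 was listed at 13.6 and 11.9 RPKM with phosphate, at 8.63 and 9.32 without, and at 9.68 and 10.4 in phl2. It was thus highest in the columns where AT5G53050 was lowest. The difference of AT5G53048 was -0.46 ± 0.13 in deficient wild type (adjusted p = 0.033, limma) and -0.91 after rescaling (adjusted p = 0.0055, limma). Of all tested genes, 4.45% were called lower as deposited and 11.7% after rescaling. With no filter on low values AT5G53048 was not called (-0.46, adjusted p = 0.0986, limma). Without replicate 1, 2, 3 or 4 the adjusted p from limma was 0.105, 0.0659, 0.198 and 0.099, so the call as deposited rests on all of these libraries. The ratio of AT5G53050 to AT5G53048 went from 0.0613 and 0.0237 with phosphate to 2.74 and 2.45 without, and was 2.21 and 1.98 in phl2. The libraries are strand-specific per the labels, but the strand setting of the authors' counting is not given in the sources used here. Which strand each of these values reports is therefore uncertain, and the same holds for the values of the other members.

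**Figure D4:**
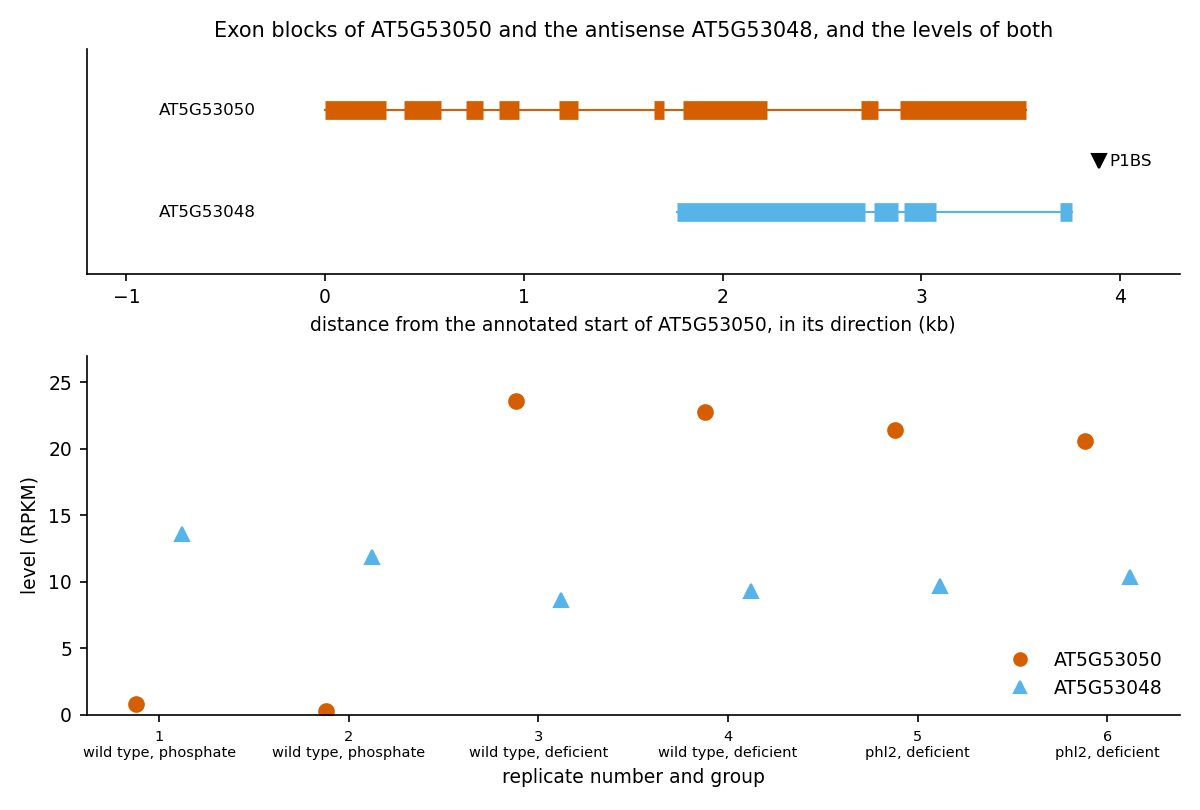
Top, exon blocks of AT5G53050 (orange) and the antisense AT5G53048 (blue) in kb from the start of AT5G53050, in its direction of transcription, with the P1BS motif beyond its end (triangle). Bottom, level of both in RPKM in each column. AT5G53050 goes from under 1 to above 20 RPKM while AT5G53048 goes from 11.9 to 13.6 down to 8.63 to 10.4.

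The P1BS motif was searched as GNATATNC, which reads the same on both strands. In the 300-base window from 250 before to 50 after the annotated start, 0 of the 4 members held it, against 6.1% of 32834 table loci and 15 of 31 known phosphate starvation genes (48.4%). In the 1000 bases before the start the counts were 0 of 4, 19.7% and 54.8%. No match says only that these letters are not in these windows. The windows follow the annotated strand of each locus, and the strand that was counted is not given. In the 1000 bases after the annotated end, a window added after the data were examined, 2 of the 4 members held the motif, against 20.2% of all loci and 22.6% of the known genes. Beyond the end of AT5G53050 there was 1 match, at base 370, which is also at position -143 from the start of AT5G53048. Matches beyond the end of AT1G67610 included those at bases 911 and 982. These also lie before the start of AT1G67600, at positions -378 and -307 from it, where a further match stood at -275. The matches given by position beyond a member's end are shown with the motif in capitals, on the member's strand, from chr5:21509707-21509736, chr1:25338107-25338136 and chr1:25338036-25338065.
AT5G53050, base 370: atatactctccGAATATACccttctcatac
AT1G67610, base 911: gaacatattttGGATATTCtcttggaattt
AT1G67610, base 982: aagcctaaaaaGCATATTCtctagcaaaca

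AT5G20790 has a relative in the genome, AT3G43110, also annotated as an uncharacterized protein (chr3:15091521-15092521, minus strand). It is the only other locus that blastn matched to AT5G20790, in a search added after the data were examined. The best match, inside the annotated span of both, runs over 109 bases with 11 differences (89.9% identity). It is shown in the sense direction, from chr5:7040081-7040189 and chr3:15091769-15091877, with the differing bases in capitals.
AT5G20790: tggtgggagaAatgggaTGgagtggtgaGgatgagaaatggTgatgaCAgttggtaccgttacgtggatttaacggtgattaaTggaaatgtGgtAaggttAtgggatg
AT3G43110: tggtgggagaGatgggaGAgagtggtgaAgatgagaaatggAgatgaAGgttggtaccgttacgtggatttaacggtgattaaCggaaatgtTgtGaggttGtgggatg

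AT3G43110 was listed at 2.48 and 1.28 RPKM with phosphate, at 11.5 and 10.8 without, and at 7.38 and 8.53 in phl2. Like AT5G20790 and AT5G53050 it was, as deposited, higher in both deficient wild-type libraries than in any other column. The median tested gene differed in the same directions, by 0.33 in deficient against sufficient wild type and -0.48 in phl2 against deficient wild type. The level of AT3G43110 was not used to choose the members. Its rise was 2.11 ± 0.20 (adjusted p = 3.6e-04, limma), or 1.70 after rescaling (adjusted p = 0.0020, limma). In phl2 it stood at 71.2% of deficient wild type, against 73.5% for AT5G20790 and a median of 59.2% over all tested genes. The phl2 difference of AT3G43110 in log2(RPKM + 1) was -0.44 ± 0.25 as deposited and 0.22 ± 0.20 after rescaling. Its direction is therefore not given. A P1BS motif lies at position -83 from the annotated start of AT3G43110, while none was found before that of AT5G20790.

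Sequence relatives of the pseudogenes were at low levels. Outside the copies themselves, blastn matched the pair to 10 further loci of the table, most of them annotated as F-box or DUF295 proteins and AT2G14520 as a CBS domain protein. Of these, 4 were listed at 0 throughout, the highest value was 1.81 RPKM, and 2 passed the filter. AT1G27540 went from 1.21 and 0.889 to 1.77 and 1.81 RPKM and AT1G27580 from 0.873 and 0.822 to 1.37 and 1.09, with differences of 0.45 ± 0.17 and 0.27 ± 0.16. Neither was called (adjusted p = 0.068 and 0.20, limma). Other annotated pseudogenes rarely reached a testable level, with 130 of 4835 past the filter. Of those 130, 23 were higher and 12 lower in deficient wild type, beside 28.0% and 4.45% of all tested genes, with a median of 0.05 against 0.33. After rescaling 12 of the 130 were higher and 27 lower, beside 8.1% and 11.7% of all tested genes.

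The difference between phl2 and deficient wild type is also a description, since the levels in both groups were used to choose the loci and the phl2 columns count as 1 sample. As deposited, in log2(RPKM + 1), it was -0.41 ± 0.21 (SE of the fit) for AT5G20790, -0.14 ± 0.22 for AT5G53050, -0.18 ± 0.16 for AT1G67610 and -0.12 ± 0.17 for AT1G67645, where the median tested gene differed by -0.48. After rescaling, which brought that median to -0.01, the differences changed sign, to 0.27 ± 0.18, 0.57 ± 0.21, 0.53 ± 0.16 and 0.58 ± 0.15. A direction of the mutant difference is therefore not given for any of the 4 loci. Over all tested genes, limma called 19.5% lower and 0.288% higher in phl2 from the deposited values. Rescaled values gave 0.0174% lower and 0.0698% higher.

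The phl2 columns differed from each other at 3 of these loci by more than at the median gene. With the values of replicate 6 divided by 1.156, the ratio most genes shared, that column held 99.1% of the reads of replicate 5 at AT5G20790, 83.2% at AT5G53050, 70.8% at AT1G67610 and 63.7% at AT1G67645. Over 396 tested genes with at least 10 RPKM in replicate 5 the median was 92.5% and the lowest 37.5%. Replicate 6 held more reads in 0 genes and fewer in 4030.

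Known genes of the phosphate response give the scale for these loci. Of 31 listed genes 29 were tested, and 27 rose, 1 fell and 1 was not called in deficient wild type, with a median of 2.04 against 0.33 over all tested genes. The counts after rescaling were again 27, 1 and 1. The largest changes after PS2, PECP1, SPX3 and SPX1 were those of IPS1 and AT4, non-coding RNAs that bind a microRNA, at 3.33 ± 0.19 and 3.05 ± 0.14. In phl2 against deficient wild type, 23 of the 29 were lower as deposited, beside 19.5% of all tested genes, with a median of -0.78 against -0.48, and 0 after rescaling. The 27 genes that rose in wild type had phl2 levels of 29.5% (DGD2) to 65.8% (AT4) of deficient wild type, with a median of 50.3%. The 4 loci stood at 73.5% (AT5G20790), 87.6% (AT1G67610), 90.6% (AT5G53050) and 91.4% (AT1G67645), each above all 27. High levels in phl2 were part of the rule that chose them, so this order is a description. Over all tested genes the median was 59.2%, and between 73.4% and 87.3% of genes lay below the 4 loci.

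**Figure D5:**
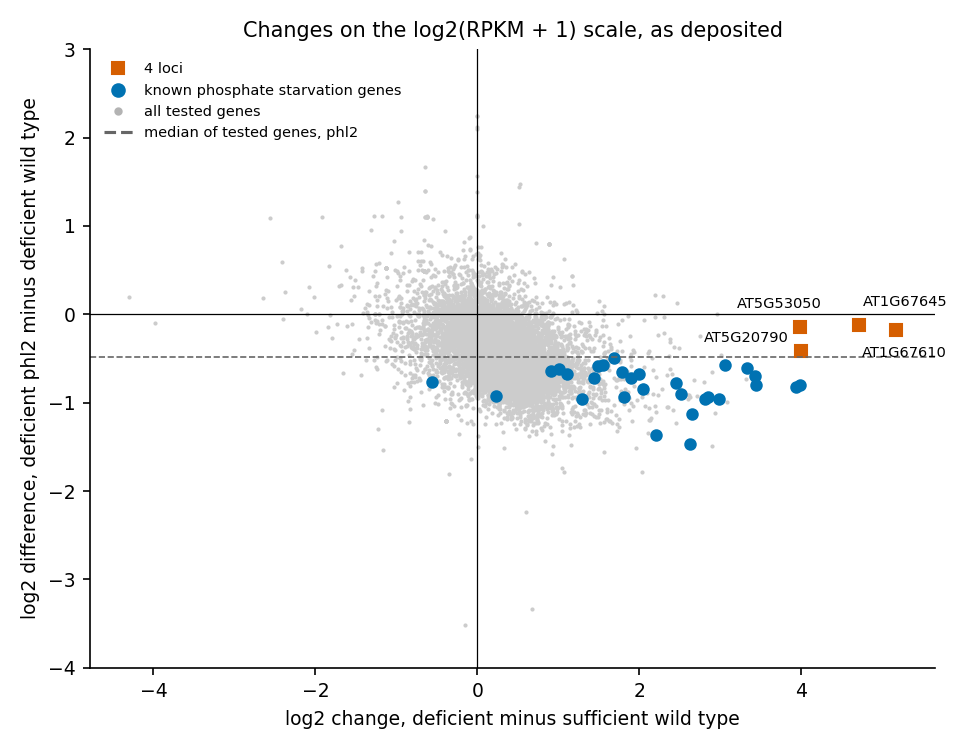
Each point is a tested gene, with its log2(RPKM + 1) change in deficient wild type on the horizontal axis and its phl2 difference on the vertical axis, both as deposited; the axes share the deficient wild-type libraries. The 4 loci (orange squares) lie at 3.98 to 5.17 and between -0.41 and -0.12, above the dashed median of -0.48, and the 29 known genes (blue) lie below it.

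The genes with the most similar pattern were found from the root mean square difference of log2(RPKM + 1), centred on each gene's mean, over 5 samples (phl2 as 1). The same columns chose the members, so their likeness to each other and to other genes is a description. The measure keeps the size of the change, so genes with a similarly large wild-type change come out close. The pseudogenes may also share reads. The pseudogenes were each other's closest gene, at 0.22. AT5G20790 and AT5G53050 were likewise closest to each other, at 0.13. PS2 followed at 0.20 for AT5G20790 and 0.32 for AT5G53050, and PECP1 at 0.22 and 0.34. SPX1 came next for AT5G20790, at 0.35, and AT1G67645 for AT5G53050, at 0.40. For AT1G67610 the next genes were AT5G53050, AT5G20790 and PS2, at 0.60, 0.64 and 0.73, and for AT1G67645 the same genes at 0.40, 0.44 and 0.54. PS2, at 19.5 and 15.8 RPKM in deficient wild type and 8.93 and 10.3 in phl2, was lower in the mutant as deposited (-0.80 ± 0.19, adjusted p = 0.041, limma) but not called after rescaling (-0.12 ± 0.14, adjusted p = 0.70, limma).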

How the data were processed

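RPKM values were deposited by the authors as 1 table of 33602 loci. TopHat2, DESeq2 and TAIR10 are named in the authors' notes to GEO (the submitters' processing notes), with neither version nor role. The libraries were made from polyadenylated RNA by a dUTP strand-specific method, per the labels' protocols. How reads were counted, and on which strand, is not given in the sources used here. Replicates are not said to be separate cultures; a p-value here reflects library-to-library spread, possibly technical.

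Values were analysed as log2(RPKM + 1) over genes that reached 1 RPKM in 2 of the 6 columns. limma 3.58.1 in R 4.3.3 fitted 3 group means to 5 samples with trended moderated variances (2 residual and 6.3 prior degrees of freedom), two-sided, with Benjamini-Hochberg adjustment over 11463 genes and a threshold of 0.05. The phl2 sample is assumed to vary like wild type. Rescaling used median ratios (factors 0.99, 0.83, 1.36, 1.22 and 0.77). The fit was tested on simulated data.

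The authors' table holds no counts. Denominators of 9260000 to 12600000 reads were estimated from low values and exonic lengths. Low values came out whole, to 0.1 read, in 48.3% to 52.2% of cases, so read numbers are approximate and no count test was run. Names, coordinates and sequences are from RefSeq TAIR10.1, which matched 32835 loci. No coordinates of the authors' build were used. Some sequence matches are not reported here. Sequences were compared with blastn 2.17.0 at an E-value of 1e-05. The members and lists were chosen with earlier results of these data known. Named were the members, loci within 10 kb, the 4 closest patterns of each, the genes ranked next to them and PHL2. The 6 known genes with the largest wild-type change were also named. Chosen after the data were examined were the sequence relatives (by blastn match), DGD2, AT5G20810, AT5G20820, SUS1, PRP3, WOX5, RBCS1A and LHCB1.3. Alternatives were rescaling, a pseudocount of 0.1, no filter, both phl2 columns as replicates and leaving out each column.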

Additional observations from a re-analysis of the deposited data

How the results depend on the processing

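The wild-type differences of AT1G67610, AT1G67645, AT5G20790 and AT5G53050 were positive under every alternative run. They were 4.81, 4.36, 3.64 and 3.60 after rescaling and 8.45, 7.98, 6.44 and 5.29 with a pseudocount of 0.1. Leaving out each column gave 5.11 to 5.22, 4.69 to 4.73, 3.81 to 4.17 and 3.72 to 4.24. Their phl2 differences reversed under rescaling, to 0.53, 0.58, 0.27 and 0.57, and ranged over -0.33 to -0.05, -0.35 to 0.07, -0.51 to -0.32 and -0.16 to -0.11 without 1 column; the cause was not tested. AT1G67645 reversed without replicate 6 (0.07). With both phl2 columns as replicates AT5G20790 was at -0.42.

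Genes called higher and lower in deficient wild type (3210 and 510) numbered 928 and 1342 after rescaling, 221 and 57 without a filter, which tests more genes, and 5030 with both phl2 columns as replicates. They were 635 to 3293 and 187 to 510 without 1 column. Rescaling took the share of higher among these calls from 86.3% to 40.9%. In phl2, 33 higher and 2230 lower became 8 and 2 after rescaling, 7 and 30 with a pseudocount of 0.1, 0 and 0 without a filter, 188 and 7448 with both phl2 columns, and 10 to 60 and 3 to 4272 without 1 column. Neighbours called higher and lower (1 and 1) were 0 higher after rescaling and within 5 kb, 0 and 0 without a filter, 2 higher with both phl2 columns, and 0 to 1 each without 1 column. Known genes lower in deficiency (1) were 0 with a pseudocount of 0.1 or no filter and 0 to 1 without 1 column. Those lower in phl2 (23) were 0 after rescaling, with a pseudocount of 0.1 or no filter, and 0 to 27 without 1 column. Other pseudogenes higher and lower (23 and 12) were 12 and 27 after rescaling, 7 and 5 without a filter, 37 higher with both phl2 columns, and 11 to 23 and 8 to 12 without 1 column. P1BS shares moved from 6.1% to 19.7% (1000 bases before the start) and 20.2% (after the end) of all loci, from 48.4% to 22.6% (after the end) of known genes, and from 0% to 50% (after the end) of members.

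No paired analysis was possible because each replicate number occurs in 1 group. The depth limits what a listing of 0 means, and 1 phl2 sample limits every mutant comparison.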
